A study of Homo sapiens with 24 samples.

Results

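The genes described here are 10 growth factor receptor and ligand genes of human cells: the epidermal growth factor receptor EGFR, its relatives ERBB2 and ERBB3, the receptors MET and AXL, and the EGF-family ligands AREG, EREG, TGFA, HBEGF and BTC. They were chosen by name, as the rows of these receptors and ligands in a table of read counts with 60366 entries, and all 10 were found. RNA had been sequenced in 24 libraries from 3 pancreatic adenocarcinoma lines, BXPC3, MIAPACA2 and PSN1, with 4 libraries in each of 6 groups. AM-9747, an inhibitor of the arginine methyltransferase PRMT5, was given for 6 days at 100 nM to BXPC3 and PSN1 cells and at 150 nM to MIAPACA2 cells, and each line had a DMSO vehicle group harvested on day 6. All 3 lines are described as MTAP-deleted and carry the genotype label WT, so every group, the vehicle groups included, shares that background. The labels do not say whether the 4 libraries of a group came from separate cultures, so p-values measure the spread between these libraries, which may be technical. The dose and the line cannot be told apart for MIAPACA2.

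EGFR, ERBB2 and ERBB3 are receptor tyrosine kinases that pair on the cell surface: EGFR binds AREG, EREG, TGFA, HBEGF and BTC, ERBB2 has no known ligand of its own, and ERBB3 binds neuregulins and signals mainly through its partners. The ligands are made as membrane proteins and are released by ADAM proteases, and the receptors then feed the RAS and ERK pathway and the PI3-kinase pathway. MET, the receptor of hepatocyte growth factor, and AXL, the receptor of GAS6, reach the same pathways, and both are known in pancreatic cancer cells and in cells that withstand inhibitors of EGFR.

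Library totals ran from 22412691 to 45561185 counts. MTAP averaged 0.276 to 2.68 CPM over the 6 groups, where CPM is the read count relative to the TMM-scaled library total, per M counts, and CDKN2A, its neighbour on the chromosome, had 0 counts in every BXPC3 and MIAPACA2 library. KRT8 and KRT18, the keratins of simple epithelium, were high in every group (419 to 2508 CPM), while the adhesion gene CDH1 averaged 423 CPM in AM-9747 and 581 CPM in vehicle BXPC3 cells but 0.125 and 0.130 CPM in AM-9747 and vehicle MIAPACA2 cells. In PSN1 cells CDH1 averaged 1.60 CPM with AM-9747 and 0.62 CPM with vehicle. The other epithelial markers, EPCAM, KRT7 and KRT19, averaged 115, 2093 and 1726 CPM in vehicle BXPC3 cells. In vehicle MIAPACA2 cells they averaged 0.0431, 0.0964 and 23.7 CPM, and in vehicle PSN1 cells 9.1, 311 and 168 CPM. The leukocyte markers PTPRC and CD3E had at most 11 and 62 counts in any library, while CD68 averaged 5.42 to 31.9 CPM over the 6 groups. The mesenchymal marker VIM averaged 7.62, 8852 and 1252 CPM in vehicle BXPC3, MIAPACA2 and PSN1 cells, and CDH2 7.86, 0 and 0.0212 CPM. Of the endothelial and fibroblast markers, PECAM1 averaged 36.0 CPM in vehicle PSN1 cells and COL1A2 2205 CPM in vehicle MIAPACA2 cells. Transcripts of the mitochondrial genome took 4.34 to 10.2% of the counts in BXPC3 libraries and 6.58 to 20.5% in MIAPACA2 libraries. In PSN1 they took 7.98 to 31.1% with AM-9747 and 17.4 to 43.8% with vehicle. Replicate 3 of the PSN1 vehicle group stood apart, with the fewest detected genes (16646) and the lowest mean correlation with its own group (r = 0.92), and the PSN1 responses and vehicle differences are given with and without it. Replicate 1 of that group stood apart in other ways. Its mitochondrial share was 17.4%, against 33.5 to 43.8% in the others. Its counts departed from replicates 2, 3 and 4 by a chi-squared per gene of 431, 394 and 256, against 61.2 to 118 among those. Leaving it out changed several PSN1 calls, as given below.

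The first question was which receptors and ligands each line used without inhibitor. The lines differed in their levels. BXPC3 had the highest level of most of these genes. In MIAPACA2 AXL was highest, followed by ERBB2, EREG and AREG with overlapping ranges, and there was almost no TGFA. In PSN1 neighbours overlapped in range from EREG through HBEGF, EGFR, AXL, MET and AREG to TGFA, with little ERBB2, ERBB3 and BTC. Levels between genes were compared as CPM per kilobase of exon. In vehicle BXPC3 cells MET was highest with 130 ± 36.3 CPM per kilobase (SD, n = 4, as for the next values), followed by AXL with 93.9 ± 17.9 and AREG with 80.4 ± 7.51. HBEGF (41.1), EGFR (39.7), TGFA (18.9), ERBB3 (18.3), ERBB2 (11.8) and EREG (9.44) came next on the same scale, and BTC was last with 1.40 ± 0.505. In this order 5 of the 9 pairs of neighbours overlapped in their library ranges, among them MET with AXL and AXL with AREG, so the top ranks are not separated.

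In vehicle MIAPACA2 cells AXL was highest with 24.8 ± 8.87 CPM per kilobase, and its 4 libraries all lay above those of ERBB2, at 14.2 ± 2.40. EREG (12.1), AREG (10.8), EGFR (5.84), BTC (5.22), MET (3.53), ERBB3 (2.2) and HBEGF (1.53 CPM per kilobase) followed, and here too 5 of 9 neighbours overlapped. TGFA was at the bottom, with 0, 2, 0 and 0 counts in the 4 libraries. A library with 0 counts may still hold up to 3 counts at 95% confidence, for counting error only. In vehicle PSN1 cells EREG led with 15.7 ± 9.45 CPM per kilobase, ahead of HBEGF (11.3), EGFR (9.08), AXL (8.70), MET (7.61), AREG (4.38) and TGFA (4.32). ERBB2 (1.01), ERBB3 (0.291) and BTC (0.0640 CPM per kilobase) were far below, and TGFA with ERBB2 was the only pair of neighbours whose library ranges were apart in that group.

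**Figure D1:**
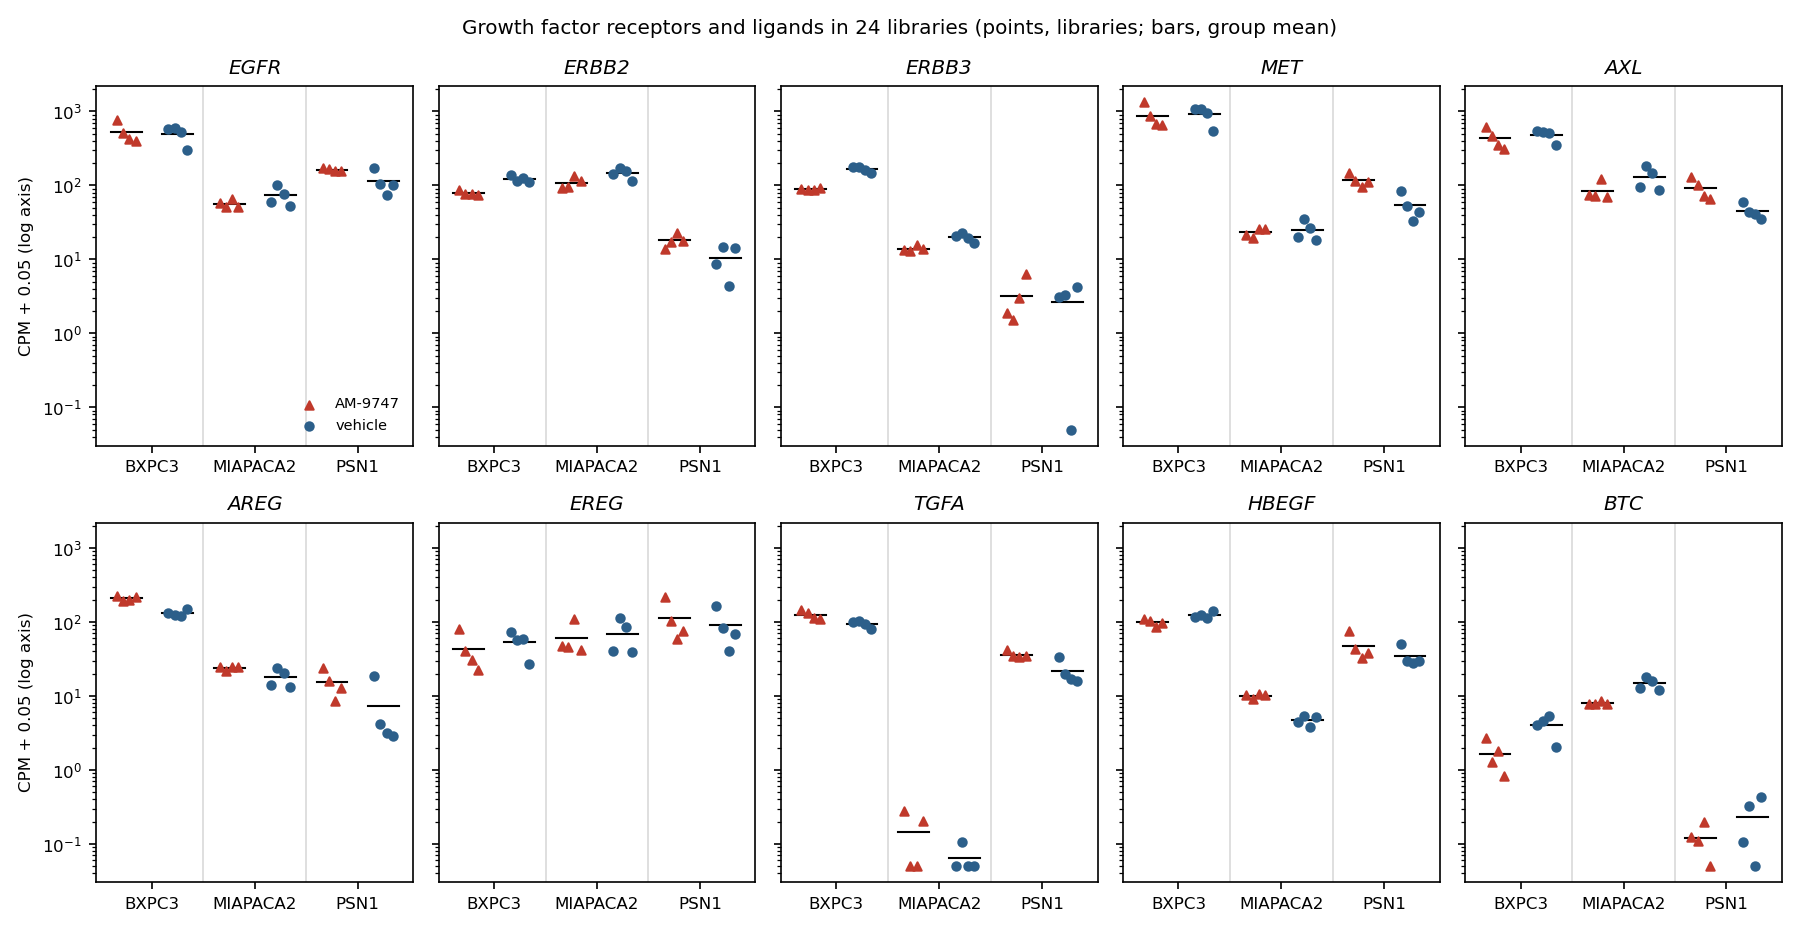
Level of each of the 10 genes in every library, as CPM plus 0.05 on a log axis, with AM-9747 left of vehicle in each line. Points are libraries and bars are group means. MET in vehicle cells averaged 911 CPM in BXPC3, 24.9 CPM in MIAPACA2 and 53.5 CPM in PSN1.

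Differences between the vehicle groups were tested in 1 edgeR fit of all 24 libraries, with each p-value adjusted over the 22883 genes tested by Benjamini-Hochberg. In BXPC3 against MIAPACA2, 8 of the 10 genes passed the adjusted threshold of 0.05, 7 higher and 1 lower, where 50.3% of all genes passed (26.3% higher and 24% lower). In BXPC3 against PSN1, 9 passed, all higher in BXPC3, against a background of 62.5% (31.7% higher and 30.8% lower). In MIAPACA2 against PSN1, 9 passed, 5 higher and 4 lower, against 54.4% (27.3% higher and 27.2% lower). These comparisons share the vehicle groups, and with so many of all genes past the threshold, a large share of these 10 genes does not set them apart.

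Among the receptors, MET (chr7:116672390-116798386, GRCh38) was far higher in BXPC3 than in the other lines. It measured 1088, 1075, 941 and 542 CPM in the vehicle libraries of BXPC3, against 20.2, 34.9, 26.3 and 18 CPM in those of MIAPACA2, a log2 difference of 5.20 ± 0.34 (SE, edgeR adjusted p = 3.97e-12). The PSN1 vehicle libraries lay between, at 84.8, 53.4, 32.9 and 43.1 CPM. The difference between MIAPACA2 and PSN1 passed under every alternative tried but the one without scaling beyond the library total, where it was -0.75 (log2, adjusted p = 0.0509). EGFR (chr7:55019021-55211628) followed the same order, with 497 ± 137 CPM in BXPC3, 73.1 ± 21.8 CPM in MIAPACA2 and 114 ± 41.2 CPM in PSN1. BXPC3 was higher than both other lines by 2.77 ± 0.27 and 2.13 ± 0.27 on the log2 scale (edgeR adjusted p = 7.08e-09 and 3.61e-07). EGFR in MIAPACA2 lay 0.64 ± 0.26 below PSN1 on that scale (edgeR adjusted p = 0.0394), but without each of 5 single libraries (MIAPACA2 vehicle replicates 1, 3 and 4, PSN1 vehicle replicates 1 and 2) the adjusted p ran from 0.0579 to 0.145 with a difference of -0.67 to -0.43, and without scaling beyond the library total it was 0.435 with a difference of -0.28. It did not pass in limma's voom fit either (-0.63, 0.156).

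ERBB2 (chr17:39687914-39730426) split the lines in another way. Vehicle BXPC3 cells had 122 ± 12.3 CPM, MIAPACA2 cells 147 ± 24.7 CPM and PSN1 cells 10.4 ± 4.95 CPM. The first pair did not pass (log2 difference -0.27, 95% interval -0.76 to 0.22, edgeR adjusted p = 0.382), whereas both lines exceeded PSN1, by 3.54 ± 0.28 for BXPC3 and 3.81 ± 0.28 for MIAPACA2 on the log2 scale (edgeR adjusted p = 1.60e-10 and 4.75e-11). The ERBB2 locus overlaps those of MIEN1 and PGAP3 on the opposite strand, and whether the counting used strand is not given in the sources used here. ERBB3 (chr12:56076799-56103505) fell in steps, with 165 ± 14.0 CPM in BXPC3, 19.9 ± 2.63 CPM in MIAPACA2 and 3.05, 3.25, 0 and 4.24 CPM in the 4 PSN1 vehicle libraries. The largest of these steps, BXPC3 against PSN1, was 5.94 ± 0.57 (log2, edgeR adjusted p = 6.04e-09). The ERBB3 locus overlaps AC034102.2, a protein-coding gene on the same strand, so reads may be split between them even if strand was used. AXL (chr19:41219203-41261766) was present in all lines, at 484 ± 92.5 CPM in BXPC3, 128 ± 45.7 CPM in MIAPACA2 and 44.8 ± 10.2 CPM in PSN1, and all 3 pairs passed. With the mitochondrial share as a covariate, AXL in MIAPACA2 exceeded PSN1 by 0.60 (adjusted p = 0.0773), against 1.51 without it.

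Among the ligands, AREG, EREG and BTC lie close together on chromosome 4, with EPGN, at chr4:74445134-74455009, chr4:74365143-74388751 and chr4:74744759-74794686 (GRCh38, GENCODE 29), and BTC is on the minus strand. They did not follow a common order over the lines. AREG averaged 132 ± 12.4 CPM in vehicle BXPC3 cells, 17.8 ± 5.07 CPM in MIAPACA2 cells and 7.22 ± 7.74 CPM in PSN1 cells, and all 3 pairs passed. The AREG difference between MIAPACA2 and PSN1 (log2 1.28, edgeR adjusted p = 0.0114) did not pass without PSN1 vehicle replicate 3 (0.96, 0.0584) or 4 (0.94, 0.0630), was 2.35 without PSN1 vehicle replicate 1, and was 0.29 (0.507) with the mitochondrial share as a covariate. EREG averaged 54.0 ± 19.1, 69.2 ± 35.9 and 89.5 ± 54.0 CPM in the same lines, and none of its 3 vehicle comparisons passed (log2 differences -0.36, -0.73 and -0.37, edgeR adjusted p = 0.562, 0.192 and 0.538). EREG is the one gene of the 10 with no called difference between lines, and the SDs show how widely it varied between libraries. With only genes of at least 5 CPM in the fit, EREG was lower in BXPC3 than in PSN1 (log2 difference -1.03, adjusted p = 0.0471), and with the mitochondrial share as a covariate it was lower in BXPC3 than in PSN1 (log2 difference -2.65, 1.25e-04) and in MIAPACA2 than in PSN1 (-1.91, 0.00106). BTC was highest in MIAPACA2, with 12.9, 18.2, 15.8 and 11.9 CPM, against 3.93, 4.47, 5.36 and 2.00 CPM in BXPC3. PSN1 vehicle libraries held at most 11 BTC counts each.

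The 250 bases before the RefSeq start site (GRCh38.p14) are shown for these 3 neighbours, which lie together but are ordered differently over the lines, and for HBEGF, the ligand whose response to AM-9747 differed between lines. Capitals mark every match, on either strand, to 6 motifs: AP-1 (TGANTCA), the cAMP response element (TGACGTCA), the GC box (GGGCGG), the E-box (CACGTG), the TEAD site (GGAATG) and the TATA box (TATAAA). AREG at chr4:74444886-74445135 (plus strand) holds a cAMP response element 65 bases before the start site, a TATA box at 29 bases and a GC box at 9 bases. EREG at chr4:74364895-74365144 (plus strand) holds a TATA box at 32 bases and a TEAD site at 175 bases. BTC at chr4:74794524-74794773 (minus strand) holds none of the 6, and HBEGF at chr5:140346604-140346853 (minus strand) holds 5 GC boxes, 2 of them overlapping.
AREG: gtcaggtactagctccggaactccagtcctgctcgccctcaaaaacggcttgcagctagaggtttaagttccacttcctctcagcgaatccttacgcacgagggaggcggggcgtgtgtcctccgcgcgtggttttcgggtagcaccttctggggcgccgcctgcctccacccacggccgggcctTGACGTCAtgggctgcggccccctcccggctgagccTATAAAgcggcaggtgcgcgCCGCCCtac
EREG: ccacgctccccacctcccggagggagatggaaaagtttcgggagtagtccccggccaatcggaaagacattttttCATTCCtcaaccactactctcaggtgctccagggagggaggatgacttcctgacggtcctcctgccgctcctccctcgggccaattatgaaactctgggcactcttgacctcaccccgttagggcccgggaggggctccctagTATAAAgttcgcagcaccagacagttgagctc
BTC: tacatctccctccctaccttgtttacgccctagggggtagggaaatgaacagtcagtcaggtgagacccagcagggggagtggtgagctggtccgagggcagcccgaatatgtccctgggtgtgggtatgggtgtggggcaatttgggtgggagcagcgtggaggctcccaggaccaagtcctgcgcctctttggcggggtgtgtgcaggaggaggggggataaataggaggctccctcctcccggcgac
HBEGF: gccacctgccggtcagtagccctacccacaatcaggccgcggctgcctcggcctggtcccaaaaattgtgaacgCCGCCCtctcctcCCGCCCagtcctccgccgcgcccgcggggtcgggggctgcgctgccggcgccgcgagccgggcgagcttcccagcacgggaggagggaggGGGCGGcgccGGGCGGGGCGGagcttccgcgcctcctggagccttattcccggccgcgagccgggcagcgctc
Of 35116 promoter windows of this length, 1.65% held the cAMP response element, 10.7% the TATA box, 42.6% the GC box, 11.9% the TEAD site, 6.57% the AP-1 site and 6.34% the E-box. A match is a run of letters and not a measured binding site, and a window without one says only that these letters are not in it.

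TGFA (chr2:70447280-70554193, minus strand), a ligand of EGFR, had 93.7 ± 9.93 CPM in vehicle BXPC3 cells and 21.4 ± 8.06 CPM in vehicle PSN1 cells, a log2 difference of 2.13 ± 0.35 (edgeR adjusted p = 1.31e-05). Both lines also exceeded MIAPACA2, where no fold is given because its group held 2 counts in all. HBEGF (chr5:140332843-140346631, minus strand), which binds EGFR and ERBB4, had 124 ± 13.1 CPM in BXPC3, 4.61 ± 0.705 CPM in MIAPACA2 and 34.2 ± 11.2 CPM in PSN1, and all 3 pairs passed, the largest BXPC3 over MIAPACA2 with 4.75 ± 0.26 (log2, edgeR adjusted p = 1.77e-13). MIAPACA2 was thus at the bottom for TGFA and HBEGF and at the top for BTC.

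Without PSN1 vehicle replicate 3, the 9 genes called between BXPC3 and PSN1 were called again, with log2 differences of 5.56 for ERBB3, 4.08 for BTC, 3.93 for MET, 3.93 for AREG, 3.40 for AXL, 3.29 for ERBB2, 2.03 for TGFA, 1.98 for EGFR and 1.77 for HBEGF. EREG was not called there either (-0.96, edgeR adjusted p = 0.0965). Between MIAPACA2 and PSN1 the differences without that library were 3.48 for ERBB2, 2.43 for ERBB3, 1.39 for AXL, -0.87 for EGFR, -1.36 for MET and -3.06 for HBEGF, and all of these passed, as did BTC and TGFA. The mitochondrial share was higher in the PSN1 vehicle libraries than in those of BXPC3. With it as a covariate, the differences between BXPC3 and PSN1 were smaller for MET (3.19), AREG (2.82), AXL (2.29), TGFA (1.55), EGFR (1.33) and HBEGF (1.10), and each still passed. Between MIAPACA2 and PSN1 they were larger in size for EGFR (-1.26), MET (-1.81) and HBEGF (-3.45) under the covariate.

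The second question was what 6 days of AM-9747 did to each gene. In BXPC3 cells both ERBB2 and ERBB3 fell and the ligands AREG and TGFA rose, while the ligand BTC fell and EGFR, MET, AXL, EREG and HBEGF did not pass. In MIAPACA2 cells HBEGF rose and ERBB3 and BTC fell. In PSN1 cells MET and AXL rose. Each line was fitted on its own with edgeR's quasi-likelihood test, since the lines differ in their spread (a biological coefficient of variation of 26.6% in BXPC3, 32.1% in MIAPACA2 and 55.1% in PSN1). In bulk RNA, a smaller share of expressing cells and less RNA per cell cannot be told apart.

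**Figure D2:**
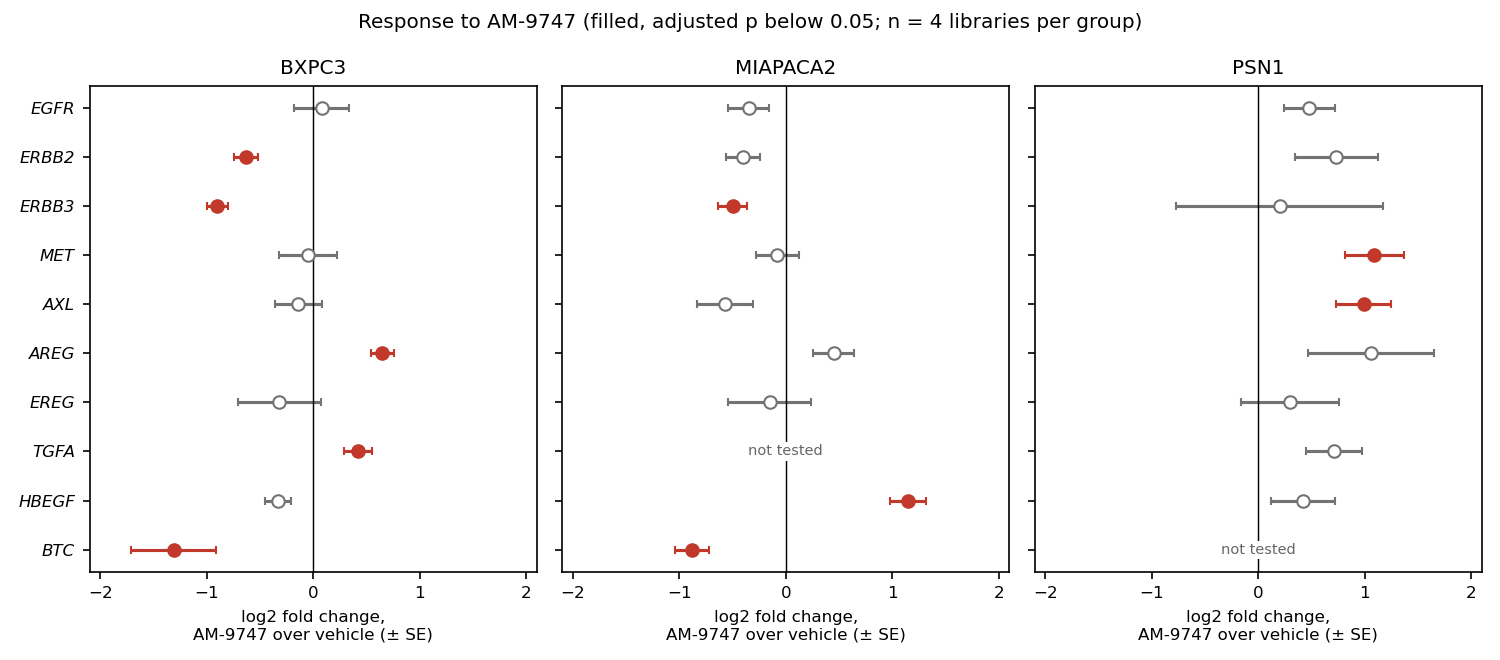
Log2 fold change of each gene, AM-9747 over vehicle, with its standard error, in the separate edgeR fit of each line (n = 4 libraries per group). Filled points have an adjusted p below 0.05. HBEGF lies at 1.15 in MIAPACA2 and at -0.33 in BXPC3.

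In BXPC3 5 of the 10 genes passed, where 29.2% of the 17638 genes tested did. The 2 that rose compare with 13.2% of all genes, and the 3 that fell with 16% of all genes. The median log2 fold change of the 10 was -0.23, against 0 over all genes tested, and 5 of the 10 had groups that did not overlap, against 32.2% of all genes.

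ERBB3 had 88.2, 86.8, 85.8 and 92.5 CPM in AM-9747 BXPC3 libraries, against 175, 178, 160.0 and 148 CPM in vehicle libraries. The groups lay far apart and each was tight. ERBB3 fell by 0.90 ± 0.10 on the log2 scale (edgeR adjusted p = 2.77e-04). ERBB2 had 85.7, 76.7, 75.6 and 75.0 CPM with AM-9747, against 137, 113, 125 and 110.5 CPM with vehicle, again with no overlap, and fell by 0.63 ± 0.11 (edgeR adjusted p = 0.00234). In a joint fit of all 24 libraries, whose spread is shared with the more variable lines, neither passed (adjusted p = 0.248 for ERBB3 and 0.114 for ERBB2).

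AREG, the ligand amphiregulin, had 225, 191, 198 and 219 CPM in AM-9747 BXPC3 libraries, against 134, 125, 122 and 149 CPM in vehicle libraries. Every AM-9747 library was above every vehicle library, and AREG rose by 0.65 ± 0.11 on the log2 scale (edgeR adjusted p = 0.00211, and 0.360 in the joint fit). Per kilobase it reached 126 ± 10.0 CPM with AM-9747, level with MET at 125 ± 44.4. TGFA had 145, 133, 114 and 110.3 CPM with AM-9747, against 99.8, 101, 94.1 and 79.6 CPM with vehicle. Its groups did not overlap either, but the rise was smaller, 0.42 ± 0.13 (edgeR adjusted p = 0.0326). Without each single library other than vehicle replicate 4 and AM-9747 replicate 4, TGFA did not pass (adjusted p 0.0533 to 0.0904, log2 fold change 0.35 to 0.47), nor without a filter on low counts (0.127), nor without scaling (0.0632), nor in the joint fit (0.499).

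BTC, betacellulin, was low in BXPC3, with 98, 39, 63 and 27 counts in AM-9747 libraries against 173, 169, 198 and 74 counts in vehicle libraries. As CPM these were 2.65, 1.21, 1.73 and 0.782 against 3.93, 4.47, 5.36 and 2.00, so that AM-9747 replicate 1 lay above vehicle replicate 4. BTC fell by 1.31 ± 0.40 on the log2 scale (edgeR adjusted p = 0.0336). The call was kept without vehicle replicate 4 or AM-9747 replicate 1, and was lost without any other single library (adjusted p 0.0660 to 0.0985, log2 fold change -1.35 to -1.08) and in the joint fit (0.101). HBEGF had 109.5, 101, 86.3 and 96.4 CPM with AM-9747, against 118, 124, 112 and 142 CPM with vehicle. Its groups did not overlap, yet its log2 fold change of -0.33 ± 0.12 missed the threshold (edgeR adjusted p = 0.0600), which it passed without AM-9747 replicate 1 (0.0491), with DESeq2 (0.0427), with limma's voom (0.00918), with the mitochondrial share as a covariate (0.0200) and with a replicate block (0.0330).

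The other genes of BXPC3 varied more between libraries than between treatments. EGFR had 769.5, 513, 429 and 396 CPM with AM-9747, against 575, 596, 521 and 297 CPM with vehicle, and its log2 fold change was 0.08 with a 95% interval of -0.42 to 0.58. MET had 1327, 859.6, 668 and 661 CPM with AM-9747, against 1088, 1075, 941 and 542 CPM with vehicle (log2 fold change -0.05, interval -0.58 to 0.47). In both, AM-9747 replicate 1 was the highest of the 8 libraries and vehicle replicate 4 the lowest. AXL (-0.14, interval -0.58 to 0.30) and EREG (-0.32, interval -1.09 to 0.44) showed the same extreme high library, and their lowest was AM-9747 replicate 4.

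In MIAPACA2 3 of 9 genes tested passed, where 13.6% of the 18090 genes tested did, with TGFA too low to be tested. Of all genes 6.73% rose and 6.84% fell, beside 1 and 2 of the 9. The median log2 fold change of the 9 was -0.35, against 0 over all genes, and 3 had groups that did not overlap, against 20.9% of all genes. HBEGF had 10.3, 9.04, 10.7 and 10.1 CPM in AM-9747 libraries, against 4.45, 5.22, 3.69 and 5.10 CPM in vehicle libraries. The rise was 1.15 ± 0.17 on the log2 scale or 2.21-fold (edgeR adjusted p = 0.00233). It is the largest rise among these 9 genes in MIAPACA2, from a low level. It passed in every alternative fit and without any single library.

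BTC had 7.66, 7.68, 8.43 and 7.63 CPM with AM-9747 in MIAPACA2, against 12.9, 18.2, 15.8 and 11.9 CPM with vehicle. The AM-9747 libraries were within 1 CPM of each other and all below the vehicle libraries. BTC fell by 0.88 ± 0.16 on the log2 scale (edgeR adjusted p = 0.00635, and 0.341 in the joint fit). ERBB3 had 13.2, 12.8, 15.6 and 13.8 CPM with AM-9747, against 20.9, 22.6, 19.6 and 16.4 CPM with vehicle. It fell by 0.50 ± 0.14 (edgeR adjusted p = 0.0417), close to the threshold. The call was lost without any one of 6 libraries, all but vehicle replicate 4 and AM-9747 replicate 3 (adjusted p 0.0826 to 0.130, log2 fold change -0.51 to -0.44). ERBB3 also did not pass without scaling (0.170), without a filter on low counts (0.0608), with a replicate block (0.0949) or in the joint fit (0.645).

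The remaining MIAPACA2 values did not pass in the separate fit. ERBB2 had 91.9, 95.3, 134 and 113 CPM with AM-9747, against 142, 172, 158 and 114 CPM with vehicle, and AXL had 73.4, 71.5, 122 and 70.5 CPM against 93.7, 184, 147 and 87.7 CPM. In both the groups overlapped through AM-9747 replicate 3, the library with the lowest mitochondrial share of its group (7.23%). Without it ERBB2 passed at -0.52 (adjusted p = 0.0391) and AXL at -0.80 (0.0385). ERBB2 also passed without vehicle replicate 4 (-0.51, 0.0494). AREG had 24.9, 21.8, 24.2 and 24.9 CPM with AM-9747, against 14.1, 23.5, 20.6 and 13.1 CPM with vehicle, a log2 fold change of 0.45 ± 0.19 (edgeR adjusted p = 0.132, and 0.0473 without vehicle replicate 2). EGFR stood at -0.35, MET at -0.08 and EREG at -0.15. TGFA had 10, 0, 0 and 7 counts with AM-9747 and 0, 2, 0 and 0 counts with vehicle.

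In PSN1 2 of 9 genes tested passed, both higher, where 10.7% of the 18287 genes tested passed (4.52% higher and 6.17% lower). BTC, with 10 counts over the AM-9747 libraries and 19 over the vehicle libraries, was not tested. The median log2 fold change of the 9 was 0.71, against 0.03 over all genes, and 2 had groups that did not overlap, against 21.4% of all genes. MET had 147, 114, 95.3 and 110.5 CPM in AM-9747 libraries, against 84.8, 53.4, 32.9 and 43.1 CPM in vehicle libraries. All AM-9747 libraries were higher, and MET rose by 1.09 ± 0.28 on the log2 scale, or 2.13-fold (edgeR adjusted p = 0.0336). AXL, with an antisense gene within its locus, had 128, 102, 72.7 and 65.1 CPM with AM-9747, against 59.2, 43.7, 40.9 and 35.5 CPM with vehicle, and rose by 0.99 ± 0.26, or 1.99-fold (edgeR adjusted p = 0.0329).

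Both PSN1 calls were near the threshold. MET passed only without vehicle replicate 1 when single libraries were left out (adjusted p 0.0521 to 0.106 without any other, log2 fold change 0.93 to 1.17). AXL did not pass without vehicle replicates 2, 3 or 4 or AM-9747 replicates 1 or 2 (0.0553 to 0.112, log2 fold change 0.81 to 1.00). Without the thin vehicle replicate 3, MET stood at 0.93 (0.0521) and AXL at 0.97 (0.0553). With the mitochondrial share of each library as a covariate, MET stood at 0.80 (0.0874) and AXL at 0.61 (0.127).

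The other genes tested in PSN1 had positive log2 fold changes that did not pass. AREG had 24, 15.8, 8.52 and 12.8 CPM with AM-9747, against 18.8, 4.17, 3.12 and 2.81 CPM with vehicle. A single vehicle library, replicate 1, overlapped the AM-9747 group, and the log2 fold change of 1.06 ± 0.59 did not pass (edgeR adjusted p = 0.268), while without that library it was 2.11 (0.00784). ERBB2 had 13.9, 17.4, 22.9 and 17.9 CPM with AM-9747, against 8.52, 14.6, 4.31 and 14.3 CPM with vehicle (log2 fold change 0.73 ± 0.39, edgeR adjusted p = 0.244, and 0.0266 in the joint fit). TGFA (0.71 ± 0.26, edgeR adjusted p = 0.101), EGFR (0.48 ± 0.24, 0.224), HBEGF (0.42 ± 0.30, 0.384) and EREG (0.30 ± 0.46, 0.705) were also positive, and TGFA and EGFR passed without vehicle replicate 1, at 0.97 (0.0125) and 0.71 (0.0291). ERBB3 was too sparse to read, with 75, 48, 98 and 166 counts with AM-9747 and 108, 70, 0 and 121 counts with vehicle. Without vehicle replicate 3, the log2 fold changes were 0.82 for AREG, 0.63 for TGFA, 0.51 for ERBB2, 0.35 for HBEGF, 0.34 for EGFR, 0.07 for EREG and -0.18 for ERBB3, which stood at 0.20 with it, with edgeR adjusted p-values of 0.155 to 0.941.

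Whether the responses differ between lines was tested on the differences themselves, in the joint fit. That fit had given a high share of false calls in PSN1 in a simulation, so differences that involve PSN1 need caution. An F test over the 3 lines called 3 of the 10 genes, ERBB2 (edgeR adjusted p = 0.0175), AXL (0.0172) and HBEGF (0.0104), where it called 12.1% of all genes, and MET missed (0.0581). By pairs, 1 gene differed between BXPC3 and MIAPACA2, where 2.07% of all genes did (0.581% higher and 1.49% lower). Between BXPC3 and PSN1 1 gene differed, against 8.33% of all genes (3.58% higher and 4.75% lower), and between MIAPACA2 and PSN1 2 did, against 10.4% (4.8% higher and 5.64% lower). All 4 were lower in the line named first. The HBEGF response was lower in BXPC3 than in MIAPACA2 by 1.46 ± 0.31 on the log2 scale (edgeR adjusted p = 0.0128). The ERBB2 response was lower in BXPC3 than in PSN1 by 1.42 ± 0.36 (0.0168) and lower in MIAPACA2 than in PSN1 by 1.21 ± 0.36 (0.0307). The last of these did not pass without any one of 6 libraries (MIAPACA2 vehicle replicates 2 and 3, MIAPACA2 AM-9747 replicates 1 and 2, PSN1 AM-9747 replicates 3 and 4; differences -1.19 to -1.04, adjusted p 0.0515 to 0.0710).

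The AXL response was lower in MIAPACA2 than in PSN1 by 1.64 ± 0.39 on the log2 scale (edgeR adjusted p = 0.00974). It kept its call without any single library and with the mitochondrial share as a covariate (-0.98, 0.0396), and missed it in limma's voom fit with quality weights by group (-1.59, 0.0586). For MET, MIAPACA2 against PSN1 stood just over the threshold (-1.23, 0.0508), and passed without MIAPACA2 vehicle replicate 4 (-1.36, 0.0364) or PSN1 vehicle replicate 1 (-1.52, 0.00585). Without PSN1 vehicle replicate 1, the MET and AXL responses of BXPC3 also differed from those of PSN1 (-1.53, 0.00622, and -1.38, 0.0154). The ERBB3 fall of BXPC3 and the AREG rise of BXPC3 were not shown to differ from the other lines. The ERBB3 difference from MIAPACA2 was -0.38 with an interval of -1.66 to 0.89, and the AREG difference from MIAPACA2 was 0.23 with an interval of -0.89 to 1.3. Without PSN1 vehicle replicate 3, the AXL difference between MIAPACA2 and PSN1 was -1.55 and the ERBB2 differences were -1.19 for BXPC3 and -0.93 for MIAPACA2 against PSN1, and all 3 passed. Without PSN1 vehicle replicate 1, the AREG response of PSN1 exceeded that of BXPC3 (difference -1.57, adjusted p = 0.00259) and that of MIAPACA2 (-1.74, 9.99e-04).

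Within a group, several of the genes rose and fell together from library to library. The measure used was the deviation of log2 CPM from the group mean over the 8 libraries of a line, for the 7 genes with at least 50 counts in every library. It is a description with no test, and libraries share their depth and scaling. Such deviations were shared over many genes. Between single AM-9747 and vehicle libraries of a line, they correlated at -0.699 to 0.63 over 12060 genes. How many other pairs of genes have r as high was not counted, so the values below are not shown to be particular to these pairs. EGFR and MET, which lie far apart on chromosome 7, had r = 0.996 in BXPC3, 0.907 in MIAPACA2 and 0.939 in PSN1 (Spearman's rho 0.976, 0.833 and 0.905; without the 2 farthest libraries r was 0.989, 0.673 and 0.782). AXL and EREG had r = 0.984, 0.995 and 0.843 (rho 0.905, 0.976 and 0.762), and in PSN1 r fell to 0.426 without the 2 farthest libraries. AREG and MET had r = 0.924 in MIAPACA2, 0.926 in PSN1 and -0.242 in BXPC3, and without the 2 farthest libraries 0.769, 0.675 and -0.291. HBEGF and MET had r = 0.832 in PSN1 and 0.164 in MIAPACA2, and without the 2 farthest libraries 0.452 in PSN1, 0.333 in MIAPACA2 and 0.490 in BXPC3, so no order of the lines can be read from this pair.

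**Figure D3:**
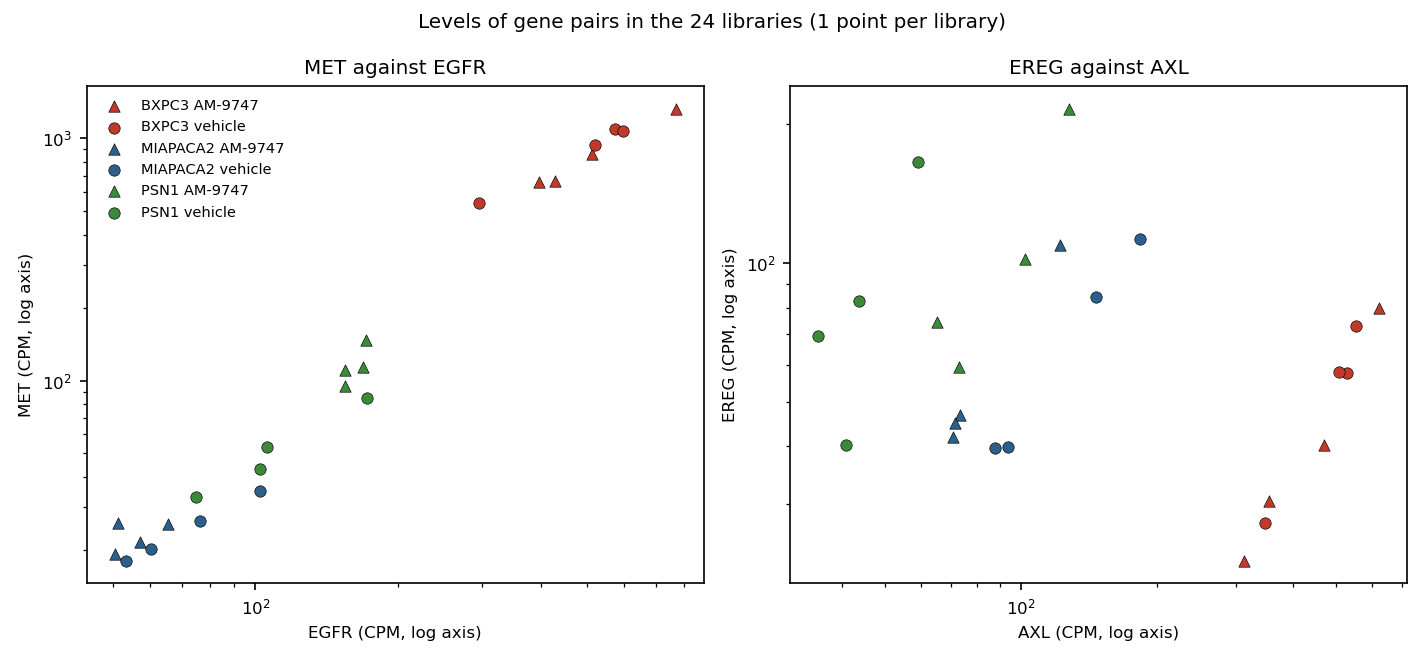
MET against EGFR and EREG against AXL in the 24 libraries, in CPM on log axes, with 1 point per library. Within each BXPC3 group, libraries higher in 1 gene of a pair tended to be higher in the other. As deviations from group means, r was 0.996 for the first pair and 0.984 for the second. Deviations leave out any offset between the treatments.

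For several of the genes, the same deviations went with the mitochondrial share. How many of all genes did so was not counted. AXL and the mitochondrial share had r = -0.976 over the BXPC3 libraries, -0.984 over the MIAPACA2 libraries and -0.857 over the PSN1 libraries (rho -0.929, -0.929 and -0.762), and without the 2 farthest libraries it was -0.976, -0.951 and -0.575. EREG had r = -0.940, -0.966 and -0.801, EGFR -0.877, -0.940 and -0.672, and MET -0.885, -0.896 and -0.688. Without the 2 farthest libraries these were -0.913, -0.900 and -0.249 for EREG, -0.846, -0.902 and -0.816 for EGFR and -0.837, -0.762 and -0.522 for MET, so the EREG value of PSN1 rests on 2 libraries. In MIAPACA2 vehicle cells, replicate 2 had the lowest mitochondrial share (6.58%) and the most AXL (184 CPM), and replicate 4 the highest share (20.5%) and the least AXL (87.7 CPM). HBEGF had r = -0.213 in BXPC3 and -0.054 in MIAPACA2, and AREG 0.218 in BXPC3, which without the 2 farthest libraries were -0.507, -0.365 and 0.686. With the share as a covariate, 7 of the 9 genes tested passed in MIAPACA2, AXL among them at -0.55 (adjusted p = 8.80e-05), ERBB2 at -0.40 (0.00156), EGFR at -0.32 (0.00971) and AREG at 0.49 (0.00396). More of the pathway genes were called in MIAPACA2 under the covariate as well. The share of all genes called under it is not given here, so this count does not set these genes apart. In PSN1, where the share itself was lower with AM-9747, none of the genes passed in edgeR under that covariate, and 3 had an unadjusted p below 0.05. The HBEGF rise in MIAPACA2 and the ERBB2, ERBB3 and AREG changes in BXPC3 kept their calls under it.

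**Figure D4:**
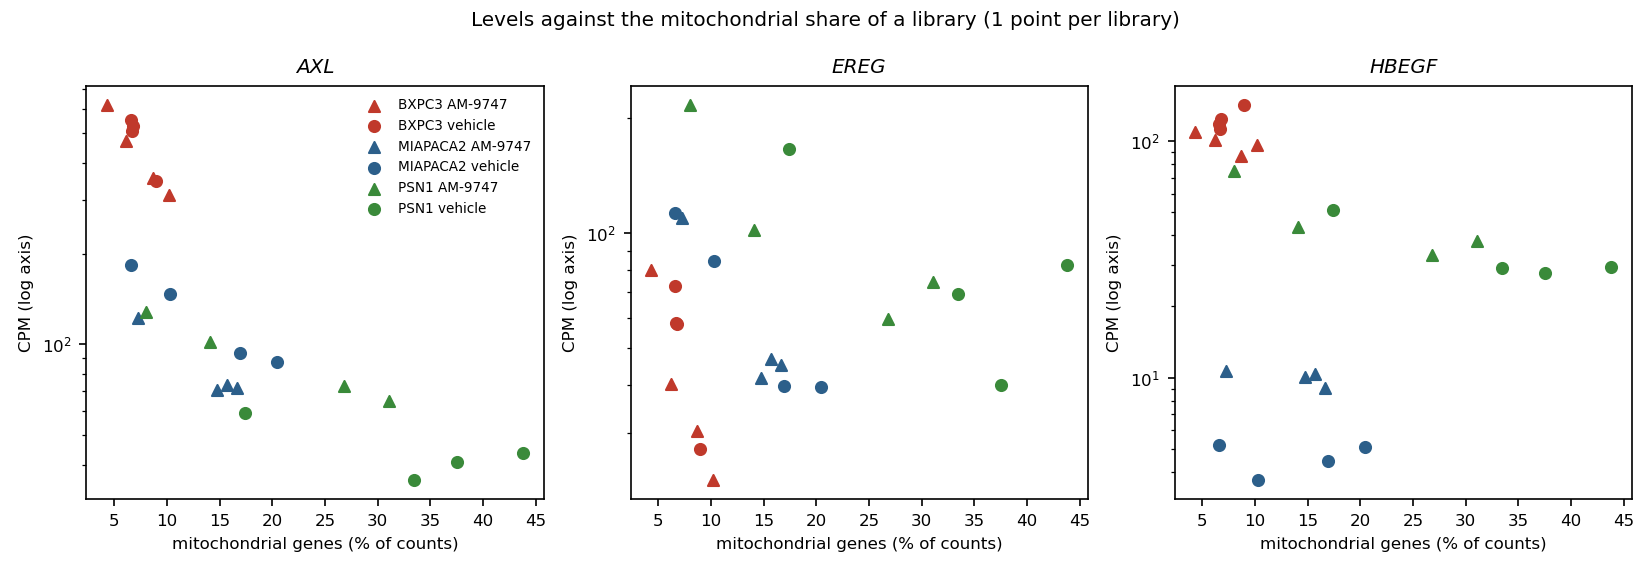
AXL, EREG and HBEGF in CPM on a log axis against the share of counts from mitochondrial genes, 1 point per library. AXL declines with the share within each line, and EREG within BXPC3 and MIAPACA2 (in PSN1 its decline rests on 2 libraries), as in MIAPACA2 vehicle cells, where AXL was 184 CPM at a share of 6.58% and 87.7 CPM at 20.5%, while the MIAPACA2 libraries of HBEGF form 2 levels, 1 per treatment.

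Across all 24 libraries, where the lines dominate, the 2 genes closest in pattern to each member were found among 11211 protein-coding genes with a mean of at least 5 CPM, by Pearson's r of log2 CPM. EGFR and MET picked each other (r = 0.99), beside EHF for EGFR (0.986) and EHD4 for MET (0.99). ERBB3 was closest to MAP7 (0.976) and to GAS6, the ligand of AXL (0.971). The closest to ERBB2 were COL5A1 (0.968) and SMARCA1 (0.965), to AXL ABHD2 (0.987) and WASF2 (0.983), to AREG PPIF (0.98) and REPS1 (0.978), to TGFA SLC1A3 (0.993) and ABHD17C (0.991), and to HBEGF RAB38 (0.987) and IGFBP2 (0.986). EREG had the weakest, CNST (0.913) and RAB29 (0.911). The libraries form 3 clusters by line, so these values say mainly that the genes are ordered alike over the lines.

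The other genes of the pathway were taken from 6 lists. Their counts are to be read against the share of all genes called with AM-9747, which was 29.2% in BXPC3 (13.2% higher, 16% lower), 13.6% in MIAPACA2 (6.73% higher, 6.84% lower) and 10.7% in PSN1 (4.52% higher, 6.17% lower). Of the MET and AXL partners, 0 rose and 3 fell of 9 tested in BXPC3, 1 rose and 2 fell of 10 in MIAPACA2, and 0 rose and 3 fell of 11 in PSN1, with medians of -0.22, 0.01 and 0.14 (log2) against 0, 0 and 0.03 over all genes. GAS6, the ligand of AXL, averaged 30.7 ± 3.34 CPM with AM-9747 and 89.7 ± 13.4 CPM with vehicle in BXPC3, and fell by 1.54 ± 0.14 on the log2 scale (edgeR adjusted p = 9.72e-05). In MIAPACA2 it averaged 10.7 ± 1.02 CPM with AM-9747 and 25.8 ± 3.67 CPM with vehicle, and fell by 1.25 ± 0.15 (7.72e-04). PROS1, another ligand of this receptor family, also fell in MIAPACA2 (-0.76, 0.0369), but without any single library other than vehicle replicate 4 it did not pass (adjusted p up to 0.117, with log2 fold changes of -0.92 to -0.66 over all 8 left-out libraries). MST1R, the MET relative known as RON, fell in BXPC3 (-1.49 ± 0.18, edgeR adjusted p = 4.08e-04) and in PSN1 (-2.67 ± 0.39, 0.00379), where MST1, its ligand, fell too (-2.63 ± 0.42, 0.00470). MET itself rose in PSN1 and did not pass in BXPC3.

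**Figure D5:**
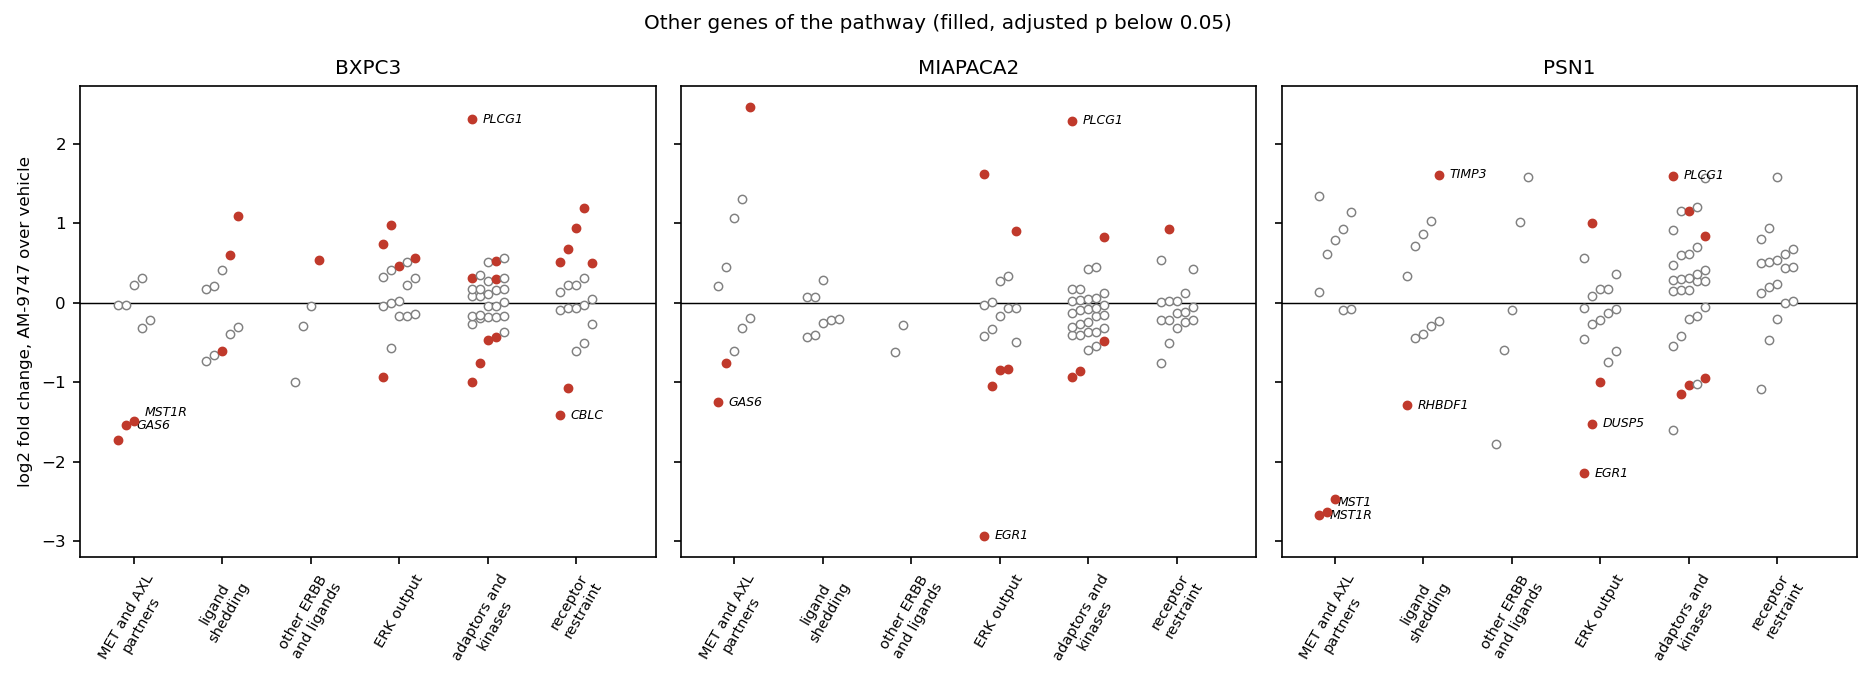
Log2 fold change, AM-9747 over vehicle, of the tested genes of 6 lists around the receptors, by line. Filled points have an edgeR adjusted p below 0.05, and names mark those chosen by the rule for named genes with a change above 1.2. PLCG1 is the highest filled point of its list in each line, at 2.31, 2.29 and 1.60.

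Of the genes for ligand shedding, 2 rose and 1 fell of 10 tested in BXPC3, none of 8 passed in MIAPACA2 in edgeR (1 at an unadjusted p below 0.05, and 1 called by DESeq2 and by limma's voom each), and 1 rose and 1 fell of 10 in PSN1 (medians -0.06, -0.21 and 0.05), beside 29.2%, 13.6% and 10.7% of all genes. TIMP3, an inhibitor of these proteases, rose in BXPC3 (0.60 ± 0.18, edgeR adjusted p = 0.0279) and PSN1 (1.61 ± 0.40, 0.0297). ADAM15 fell in BXPC3 (-0.60 ± 0.12, 0.00420) and RHBDF1, a partner of ADAM17, fell in PSN1 (-1.29 ± 0.35, 0.0392). In PSN1 TIMP3 and RHBDF1 did not pass without vehicle replicates 2, 3 or 4 or AM-9747 replicates 1, 2 or 4 (adjusted p up to 0.0969 and 0.132). RHBDF1 also did not pass there without scaling or with the mitochondrial share as a covariate. The main sheddases ADAM10 and ADAM17 passed in no line in edgeR (adjusted p 0.0932 to 0.593), while limma's voom with quality weights called all 10 genes tested in BXPC3, these included. Of the other ERBB-family genes, NRG1, a ligand of ERBB3, had 89.7 ± 9.51 CPM with AM-9747 and 62.0 ± 11.1 CPM with vehicle in BXPC3 and rose by 0.54 ± 0.15 (0.0245). Without vehicle replicates 1 or 3 or AM-9747 replicates 1 or 2, neither NRG1 nor TIMP3 passed in BXPC3 (up to 0.0639 and 0.0784). NRG1 was the one edgeR call of that list in the 3 lines, with 4, 2 and 5 genes tested and medians of -0.16, -0.45 and -0.09. In MIAPACA2 and PSN1 none had an unadjusted p below 0.05, and DESeq2 called 0 in both and limma's voom 0 and 1.

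Of the receptor adaptors and first kinases, 4 rose and 4 fell of 31 in BXPC3, 2 rose and 3 fell in MIAPACA2, and 3 rose and 3 fell in PSN1 (medians 0.09, -0.13 and 0.29), beside 29.2%, 13.6% and 10.7% of all genes. PLCG1, the phospholipase recruited by active receptors, had 483 ± 159 CPM with AM-9747 and 97.5 ± 6.82 CPM with vehicle in BXPC3, 647 ± 143 and 135 ± 9.51 CPM in MIAPACA2, and 766 ± 264 and 244 ± 83.7 CPM in PSN1. It rose in each line (log2 fold change 2.31, 2.29 and 1.60, edgeR adjusted p = 1.34e-04, 2.24e-04 and 0.0173). BRAF rose in BXPC3 (0.53, 0.0434) and MIAPACA2 (0.83, 0.00368). SHC1, the adaptor that couples EGFR to RAS, fell in MIAPACA2 (-0.86, 0.00434) and PSN1 (-1.03, 0.0184). MAP2K2, a MEK kinase, fell in BXPC3 (-1, 0.00390) and PSN1 (-1.15, 0.0208), MAPK3 in BXPC3 (-0.76, 0.00102) and PIK3R3 in MIAPACA2 (-0.93, 0.00547), while NRAS rose in PSN1 (1.16, 0.0370). BRAF in BXPC3 did not pass without any single library other than vehicle replicate 4 and AM-9747 replicate 4 (adjusted p up to 0.0976). With the mitochondrial share as a covariate, NRAS and MAP2K2 did not pass in PSN1, nor did SHC1 and MAP2K2 without scaling. In PSN1, without AM-9747 replicates 2 or 4, none of PLCG1, SHC1, MAP2K2 and NRAS passed (up to 0.0513, 0.0845, 0.077 and 0.113 without any single library), and the same held for SHC1, MAP2K2 and NRAS without vehicle replicate 4, for SHC1 and NRAS without vehicle replicate 2, and for NRAS without vehicle replicate 3 or AM-9747 replicate 1.

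Of the genes that restrain or turn over receptors, 5 rose and 2 fell of 19 in BXPC3, 1 rose of 17 in MIAPACA2, and none of 18 passed in PSN1 in edgeR (medians 0.05, -0.11 and 0.45), beside the same 29.2%, 13.6% and 10.7% of all genes. In PSN1 4 of them had an unadjusted p below 0.05, and DESeq2 called 0 and limma's voom 4. LRIG2 rose in BXPC3 (1.19 ± 0.14, edgeR adjusted p = 2.89e-04) and MIAPACA2 (0.93 ± 0.18, 0.00718). RNF41, the ubiquitin ligase known for taking ERBB3 down, had 27.5 ± 3.41 CPM with AM-9747 and 58.0 ± 5.72 CPM with vehicle in BXPC3, and fell by 1.07 ± 0.13 (3.21e-04). CBLC, a ubiquitin ligase of the CBL family, fell there as well (-1.41 ± 0.20, 7.78e-04), and HGS, which sorts receptors in endosomes, rose (0.94 ± 0.14, 0.00104).

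Of the output genes of ERK signalling, 4 rose and 1 fell of 17 tested in BXPC3, 2 rose and 4 fell of 16 in MIAPACA2, and 1 rose and 3 fell of 17 in PSN1 (medians 0.23, -0.11 and -0.13), beside 29.2%, 13.6% and 10.7% of all genes. EGR1, an immediate early gene, fell in all 3 lines, with 149 ± 13.7 CPM with AM-9747 and 284 ± 9.15 CPM with vehicle in BXPC3, 35.2 ± 4.95 and 272 ± 42.3 CPM in MIAPACA2, and 117 ± 25.1 and 496 ± 135 CPM in PSN1 (log2 fold change -0.93, -2.93 and -2.14, edgeR adjusted p = 2.26e-04, 3.75e-05 and 0.00199). DUSP6, the phosphatase that switches ERK off, rose in BXPC3 (0.56 ± 0.11, 0.00492) and fell in PSN1 (-0.99 ± 0.23, 0.0239). SPRY4 (0.98) and FOSL1 (0.74) rose in BXPC3, SPRY2 (-0.84) and EPHA4 (-1.04) fell and ETV4 (0.91) rose in MIAPACA2, and DUSP5 (-1.52) fell and CCND1 (1.00) rose in PSN1. FOSL1 did not pass without any single library other than vehicle replicate 4 and AM-9747 replicate 1 (adjusted p up to 0.0928), EPHA4 without AM-9747 replicates 1 or 4 (up to 0.0577), and DUSP6 and CCND1 in PSN1 without any single library other than vehicle replicates 1 and 3 (up to 0.0841 and 0.101). CCND1 also did not pass in PSN1 with the mitochondrial share as a covariate, nor did DUSP6 there without scaling. The list held calls in both directions in every line.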

How the data were processed

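RNA from 24 libraries of 3 pancreatic cancer lines was compared in 6 groups of 4, taken from the sample labels. The deposited values are raw counts of reads, 1 column per library, and 0 columns were left unmatched. The submitters' processing notes name fastp 0.19.8, HISAT2 2.2.0, GRCh38, R 4.0.2 and DESeq2 1.34.0. Libraries were strand-specific, per the labels' protocols. Not given in the sources used here are the read counter, its strand setting and its annotation release, so reads of overlapping genes may be split between them. Of 60366 entries, 56189 matched GENCODE 29 by ID, which gave coordinates and the exon lengths behind the values per kilobase. Another 1862 entries have no Ensembl ID.

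From these counts, each line was fitted on its own with edgeR 4.0.16 (quasi-likelihood test, filterByExpr by group, then TMM) under R 4.3.3, and lines were compared in a joint fit of the 6 groups, with 18 residual degrees of freedom. P-values were adjusted over all genes of a fit by Benjamini-Hochberg, with 0.05 as the threshold. Standard errors are the log2 fold change divided by the root of the F statistic, and intervals are 95% normal intervals from them. Alternatives used DESeq2 1.42.0, limma 3.58.1, other scalings, filters and covariates, and each library left out. The fits were tested on simulated data. In an earlier simulation, the joint fit gave a high share of false calls in PSN1, and each line was therefore fitted on its own.

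The genes and lists were chosen with earlier results of these data known. Of each pathway list, at most 4 genes per line are named, those with the largest change among members past the threshold with a mean of at least 5 CPM. For each of the 10 genes with a mean of at least 5 CPM, the 2 other genes with the highest Pearson r of log2 CPM (prior count 2) over the 24 libraries are named. The alternatives for the pathway lists, and the correlations of the genes with the mitochondrial share within groups, were added after the data were seen. Promoter sequences are RefSeq's (GRCh38.p14), for 9 of the 10 genes.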

Additional observations from a re-analysis of the deposited data

Results flagged for a closer look

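In 60 sets of 4 libraries, 1 per gene and group, each end library's distance from the nearest other was divided by the range of the 4 CPM values. In 7 sets this ratio exceeded Dixon's critical value. For normally distributed values chance flags about 1 in 20 sets, and CPM need not be so distributed. With AM-9747, ERBB2 was high in BXPC3 replicate 1 (85.7 CPM), and 3 genes were high in MIAPACA2 replicate 3, AXL with 122 CPM, EREG with 109.6 CPM and BTC with 8.43 CPM. That library had the lowest mitochondrial share of its group. In the vehicle groups, replicate 1 of PSN1 was high for AREG (18.8 CPM) and for HBEGF (51.0 CPM), and replicate 2 of MIAPACA2 was the one vehicle library of that line with any TGFA count (0.0550 CPM, 2 counts). With no counts in the other libraries of its group, any TGFA count would have been flagged.

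The 4 tested differences between lines in the response to AM-9747 that passed came from the joint edgeR fit. The HBEGF response differed between BXPC3 and MIAPACA2 by -1.46 on the log2 scale. The ERBB2 response differed between BXPC3 and PSN1 by -1.42 and between MIAPACA2 and PSN1 by -1.21, and the AXL response between MIAPACA2 and PSN1 by -1.64.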

How the results depend on the processing

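Of the values of single genes, 801 kept their direction and side of the threshold under another setting, 38 newly passed, 22 no longer passed and 17 changed sign. With single libraries left out these numbers were 847, 23, 43 and 31. The causes were not tested.

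The count of the 10 genes called with AM-9747 was 5 in BXPC3, with 8 by limma's voom with quality weights, 0 in the joint fit (2 at an unadjusted p below 0.05) and 3 to 5 without single libraries, where all genes called numbered 3707 to 6763. In MIAPACA2 it was 3, with 5 by voom, 7 with the mitochondrial share as a covariate, 1 in the joint fit and 2 to 5 without single libraries (all genes 1142 to 3243). In PSN1 it was 2, with 5 by voom, 0 with the covariate (3 at an unadjusted p below 0.05) and 0 to 5 without single libraries (all genes 530 to 4370). Responses that differed between BXPC3 and PSN1 numbered 1, with 3 by DESeq2, 3 without scaling, 3 among genes of 5 CPM or more and 1 to 5 without single libraries (all genes 1132 to 5279). Between MIAPACA2 and PSN1 they numbered 2, with 1 by voom, 1 in a fit of these lines alone and 1 to 5 without single libraries (all genes 1412 to 5392). Between BXPC3 and MIAPACA2 the count was 1 throughout the left-out libraries. Calls between vehicle groups numbered 8 for BXPC3 against MIAPACA2, 9 for BXPC3 against PSN1 and 8 to 9 for MIAPACA2 against PSN1 in the same test. For the other settings, here and below, the number of all genes called is not given. A count that moved there is therefore not shown to be particular to these genes.

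Of the genes on the 6 pathway lists, with alternatives chosen after seeing the data, 27 were called in BXPC3, with 51 by voom, 48 with the covariate, 14 in the joint fit and 17 to 38 without single libraries. In MIAPACA2 15 were called, with 28 by voom, 39 with the covariate and 10 to 20 without single libraries. In PSN1 15 were called, with 23 by DESeq2, 31 by voom, 33 in the joint fit and 4 to 25 without single libraries. Without the number of all genes called in the same setting, these shifts cannot be told from a general change in calls. The pathway genes named in the text lost their call in 22 of their alternative fits and in 68 of those without a library.

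Replicate numbers are shared between groups but did not pair the libraries. Same-numbered libraries correlated at -0.148 to 0.619 in BXPC3, -0.428 to 0.336 in MIAPACA2 and -0.158 to 0.63 in PSN1. With the replicate block, 4 of the 10 genes were called in PSN1 (AREG at 1.43 and TGFA at 0.76 in addition), ERBB3 in MIAPACA2 was not called (-0.49) and HBEGF in BXPC3 was (-0.33). Under the block 4 responses differed between BXPC3 and PSN1, 5 between MIAPACA2 and PSN1, and 41 pathway genes were called in BXPC3.

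None of the values that changed sign was called. With the mitochondrial covariate, EREG in PSN1 stood at -0.47 and HBEGF in PSN1 at -0.05, the difference of responses between BXPC3 and PSN1 at 0.18 for AREG, 0.37 for EREG and 0.08 for BTC, and that between MIAPACA2 and PSN1 at 0.01 for AREG and 0.58 for EREG. The BTC difference between BXPC3 and PSN1 was 0.12 by DESeq2, 0.09 with median-of-ratio scaling, 0.15 among genes of 5 CPM or more and 0.04 without mitochondrial genes. By voom, EGFR in BXPC3 was -0.19 and ERBB3 in PSN1 -0.45. MET in MIAPACA2 was 0.06 without scaling and 0.01 among genes of 5 CPM or more, and its difference between BXPC3 and MIAPACA2 was -0.12 and -0.05. Without single libraries, EGFR in BXPC3 ran from -0.15 to 0.19, MET from -0.31 to 0.06 in BXPC3 and -0.21 to 0.11 in MIAPACA2, EREG from -0.60 to 0.17 in MIAPACA2 and -0.20 to 0.74 in PSN1, and ERBB3 in PSN1 from -0.38 to 0.56. The difference between BXPC3 and MIAPACA2 ran from -0.21 to 0.19 for MET and -0.61 to 0.32 for EREG, that between BXPC3 and PSN1 from -0.77 to 0.52 for BTC, and that between MIAPACA2 and PSN1 from -0.98 to 0 for EREG and -0.31 to 0.99 for BTC. EREG in vehicle MIAPACA2 against PSN1 ran from -0.71 to 0.04.

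Depth limits TGFA in MIAPACA2 and ERBB3 and BTC in PSN1, where libraries held few or no counts. Without length correction, 43 of 60 ranks moved.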
